A study of Mus musculus with 4 samples.

Results

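The genes described here write, erase and read N6-methyladenosine (m6A), the most common internal chemical mark of mRNA. Members were chosen by symbol: a list of 10 genes (the writers Mettl3, Mettl14 and Wtap, the erasers Fto and Alkbh5, and the YTH-domain readers Ythdf1, Ythdf2, Ythdf3, Ythdc1 and Ythdc2) was matched to probe sets that the platform annotation ties to exactly 1 gene symbol. Of 21789 such probe sets on the array, 10 carried a member's symbol. They stood for 9 of the 19938 genes measured, with 2 probe sets for Wtap and 1 for each of the others. No probe set carried the symbol Ythdf2 alone, so that reader was not analysed here.

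Writers act as a nuclear complex that methylates adenosines in nascent transcripts: METTL3 is the catalytic subunit, METTL14 its RNA-binding partner and WTAP the adaptor that holds them at nuclear speckles. FTO and ALKBH5 are oxygenases that remove the methyl group. Proteins with a YTH domain bind the mark and route the transcript to splicing, export, translation or decay, and the pathway is known for its part in the self-renewal and differentiation of blood progenitors. The arrays measured the mRNAs of these genes in immunoprecipitates, not the m6A mark and not the proteins.

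The study compared RNA pulled down by control rabbit IgG (2 Affymetrix whole-transcript arrays) with RNA pulled down by an antibody to a protein that binds RNA, called RBP in the labels (2 arrays). Both came from lysates of C57BL/6 mouse fetal liver at E14.5, from early erythroid progenitors that were depleted of lineage-positive cells and of cells bearing stem cell, myeloid or megakaryocyte surface markers (Sca-1, CD16/32, CD41 or CD34), then sorted as c-Kit positive and CD71 low. The target of the antibody has no name in the labels. Knowledge of the published work points to ZFP36L2, a zinc finger protein that binds AU-rich mRNA, and this identity was not checked here. No array of input RNA was analysed, so a level is the signal of an immunoprecipitate and not the abundance in the cells. Separate cell preparations for replicate arrays are not stated, and p-values therefore measure the spread between arrays, which may be technical.

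All 7 markers of early erythroid progenitors (Kit, Gata1, Epor, Klf1, Tal1, Gfi1b and Tfrc) lay above the background level of 5.36, which is the 95th percentile of 1246 chemosensory receptor genes that these cells are not known to use. Their mean log2 levels ran from 9.31 to 11.41. Kit (0.69), Epor (0.87) and Tal1 (0.58) were called higher on the RBP arrays, and the summed log2 level of the 7 was 68.39 to 69.26 with IgG and 71.77 to 73.36 with RBP. Among markers of other cells, 2 of 4 hepatocyte, 2 of 4 macrophage, 2 of 3 megakaryocyte, 2 of 3 granulocyte, 2 of 3 endothelial and both measured lymphoid genes were above that level, the highest being the granule enzyme gene Mpo at 11.00. The macrophage gene Cd68 (-1.59) and the granulocyte gene Elane (-1.44) were lower on the RBP arrays and the megakaryocyte gene Gp9 (0.82) was higher. The summed log2 level of the 4 macrophage genes was 22.91 to 24.28 with IgG and 22.92 to 24.44 with RBP, that of the 3 granulocyte genes 24.41 to 26.92 and 22.79 to 25.48, and that of the 3 megakaryocyte genes 18.89 to 19.13 and 19.45 to 20.19. For the 4 hepatocyte genes it was 21.75 to 25.82 and 22.38 to 25.08, for the 2 lymphoid genes 12.31 to 13.69 and 10.88 to 12.12, and for the 3 endothelial genes 16.90 to 17.98 and 18.27 to 19.49. The part of these cells in the results was not tested. Without input RNA, marker levels in the immunoprecipitates do not give the share of any cell type. The mRNA of Zfp36l2 itself differed by 0.76 ± 0.18 (SE; limma, adjusted p = 0.0255).

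The comparison asked which of these mRNAs the RBP antibody recovered beyond control IgG. On the deposited scale 5 of the 9 genes were higher in the RBP immunoprecipitates, 0 were lower (0 also at an unadjusted p under 0.05) and 4 did not pass limma's test at an adjusted p of 0.05. The 5 were the readers Ythdc2 (3.50-fold), Ythdf3 (1.61-fold) and Ythdf1 (1.48-fold), the writer Mettl3 (2.04-fold) and the eraser Alkbh5 (1.90-fold). Over all genes tested 23.8% were called higher and 6.54% lower, and among the 12840 genes above the background level, where all 9 members lay, 36.5% were called higher and 6.55% lower. The members' median difference was 0.72 on the log2 scale against -0.02 for all genes. Genes at similar levels had medians close to this, namely 0.66 for genes with a mean level of 7 to 8, 0.78 at 8 to 9, 0.74 at 9 to 10 and 0.56 above 10. In these bands 47.1%, 56.4%, 57.8% and 47.2% of genes were called higher, which is near the share of the members. When the loess trend of the difference on level was removed, Ythdc2 alone of the 9 was called (5.63% of all genes were then called higher and 5.09% lower), the members' median fell to about 0.00, and the differences of Wtap, Fto, Ythdf1, Ythdf3 and Ythdc1 turned slightly negative.

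**Figure D1:**
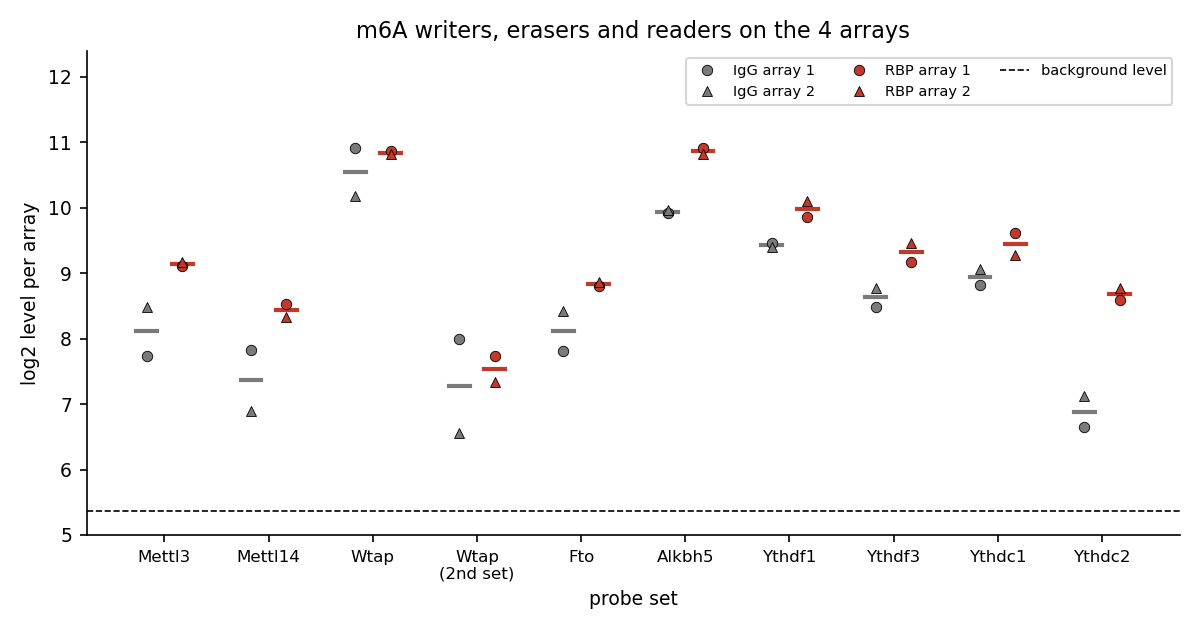
Log2 level of each probe set on the 4 arrays, with grey symbols for IgG and red for RBP (circles for array 1, triangles for array 2) and a bar at the mean of each group; the dashed line is the background level of 5.36. Both RBP arrays lie above both IgG arrays for 8 of the 9 genes, and Wtap is the exception. The same holds for 37.4% of all genes and 54.9% of genes above the background level, shares that were not computed by level band.

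Among the writers, Mettl3, the methyltransferase itself, stood at 7.74 and 8.49 with IgG and at 9.11 and 9.17 with RBP. Both RBP arrays were above both IgG arrays, and the IgG arrays lay 0.75 apart while the RBP arrays lay 0.06 apart. The difference was 1.03 ± 0.26 (SE; limma, adjusted p = 0.0336; 95% interval 0.38 to 1.68). This call was lost without RBP array 1 (adjusted p = 0.114) and without RBP array 2 (adjusted p = 0.123), and the difference fell to 0.50 with quantile normalization (adjusted p = 0.273) and to 0.31 with the level trend removed (adjusted p = 0.497). It was 0.65 without IgG array 1.

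Mettl14, the partner that completes the catalytic pair, had levels of 7.83 and 6.90 with IgG and 8.54 and 8.33 with RBP. Its groups did not overlap either, but the IgG arrays were 0.93 apart. The difference of 1.07 ± 0.31 was as large as that of Mettl3 and just missed the threshold (SE; limma, adjusted p = 0.0504; 95% interval 0.29 to 1.85). Without IgG array 1 it was 1.54 and without IgG array 2 it was 0.60. Either fit leaves out the 0.93 between the IgG arrays, so a call from it cannot speak to that spread. Limma called it when only genes above the background level were tested (adjusted p = 0.0339) and after centring on chemosensory receptor genes (1.39, adjusted p = 0.0131). It was not called with quantile normalization (0.69, limma adjusted p = 0.284), with the level trend removed (0.40, adjusted p = 0.462) or without variance moderation (adjusted p = 0.288). The difference was 0.97 without RBP array 1 and 1.17 without RBP array 2.

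In the IgG pair the 2 genes went opposite ways, Mettl3 being lower and Mettl14 higher on array 1. The log2 ratio of Mettl3 to Mettl14 was -0.09 and 1.59 with IgG and 0.57 and 0.84 with RBP. The RBP ratios lay inside the IgG range, and the mean ratio differed by -0.04 between groups (exact two-sided permutation p = 1). With 2 arrays against 2 the smallest p of that test is 0.333, so it cannot pass for any pair of genes.

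Wtap, which encodes the adaptor, read on its brighter probe set 10.92 and 10.18 with IgG and 10.87 and 10.82 with RBP. The groups overlapped, since IgG array 1 was above both RBP arrays. The difference of 0.29 ± 0.26 did not pass (SE; limma, adjusted p = 0.407; 95% interval -0.35 to 0.93). A second Wtap probe set, matched to 1 RefSeq transcript rather than 3, read 7.99 and 6.57 with IgG and 7.73 and 7.33 with RBP, a difference of 0.26 ± 0.46 (adjusted p = 0.684 over all probe sets). Both probe sets showed the same order, with IgG array 1 highest and IgG array 2 lowest. The Wtap difference rested on the IgG array used: it was 0.66 without IgG array 1 and -0.08 without IgG array 2. The log2 ratio of Mettl3 to Wtap was -3.18 and -1.69 with IgG and -1.76 and -1.64 with RBP, which overlap (difference 0.74, exact two-sided permutation p = 0.667).

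Of the erasers, Alkbh5, which demethylates m6A in the nucleus, gave the tightest measurement of the group. Its levels were 9.92 and 9.96 with IgG and 10.92 and 10.82 with RBP. Replicate arrays were at most 0.10 apart and the groups were clearly separate. The difference was 0.93 ± 0.14 (SE; limma, adjusted p = 0.00847; 95% interval 0.57 to 1.28). It kept its call with quantile normalization (0.65, adjusted p = 0.0461) and lost it once the level trend was removed (0.43, adjusted p = 0.116), without RBP array 1 (0.88, adjusted p = 0.0826) and without RBP array 2 (0.98, adjusted p = 0.0594). The median for all genes above a level of 10 was 0.56.

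Fto, the other demethylase, which also acts on the methylated base beside the mRNA cap, read 7.81 and 8.42 with IgG and 8.81 and 8.86 with RBP. Both RBP arrays were above both IgG arrays, and the IgG arrays were 0.61 apart. The difference of 0.72 ± 0.23 did not pass (SE; limma, adjusted p = 0.0611; 95% interval 0.16 to 1.29), and it is the median of the 9 genes. Limma called it among genes above the background level (adjusted p = 0.0471) and after centring on chemosensory receptor genes (1.04, adjusted p = 0.0204). The difference was 1.03 without IgG array 2. It fell to 0.42 without IgG array 1, to 0.20 with quantile normalization and to about 0.00 with the level trend removed. The log2 ratio of Fto to Alkbh5 ran from -2.11 to -1.55 with IgG and from -2.11 to -1.95 with RBP. These ranges overlap (difference -0.20, exact two-sided permutation p = 0.667). That test cannot pass for any pair, so it does not show whether the 2 erasers differed.

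Both YTHDF paralogs measured were called higher. Ythdf1, a reader associated with translation of marked mRNAs, had levels of 9.46 and 9.39 with IgG and 9.86 and 10.11 with RBP. The groups did not overlap, and the difference was 0.56 ± 0.16 (SE; limma, adjusted p = 0.0449; 95% interval 0.17 to 0.95). Each of the 4 arrays was needed for this call: the adjusted p was 0.0530 without IgG array 1, 0.0633 without IgG array 2, 0.156 without RBP array 1 and 0.320 without RBP array 2. The difference was 0.12 with quantile normalization (adjusted p = 0.682) and -0.06 with the level trend removed (adjusted p = 0.848).

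Ythdf3, a paralog that works with the other YTHDF proteins, stood at 8.48 and 8.78 with IgG and 9.18 and 9.46 with RBP. Array 2 was the higher in both groups, and the groups were separate. The difference was 0.69 ± 0.18 (SE; limma, adjusted p = 0.0392; 95% interval 0.23 to 1.14). The call held without IgG array 2 (0.83, adjusted p = 0.0256) and was lost without IgG array 1 (0.54, adjusted p = 0.0744), without RBP array 1 (0.83, adjusted p = 0.113) and without RBP array 2 (0.55, adjusted p = 0.252), with quantile normalization (0.15, adjusted p = 0.642) and with the level trend removed (-0.02, adjusted p = 0.967). The log2 ratio of Ythdf1 to Ythdf3 was 0.97 and 0.62 with IgG and 0.69 and 0.65 with RBP, with the RBP ratios inside the IgG range (difference -0.12, exact two-sided permutation p = 1).

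Ythdc1, the nuclear reader linked to splicing and export, read 8.82 and 9.06 with IgG and 9.61 and 9.27 with RBP. The lower RBP array was 0.22 above the higher IgG array, less than the 0.33 between the RBP arrays. The difference of 0.50 ± 0.18 did not pass (SE; limma, adjusted p = 0.0903; 95% interval 0.05 to 0.96). It was called after centring on chemosensory receptor genes (0.82, adjusted p = 0.0206), and it turned to -0.02 with quantile normalization and -0.18 with the level trend removed.

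Ythdc2, which joins a YTH domain to an RNA helicase and is known for its part in germ cell meiosis, differed most. Its levels were 6.64 and 7.12 with IgG and 8.60 and 8.78 with RBP. The mean rose from 6.88 ± 0.34 (SD, n = 2) to 8.69 ± 0.13 (SD, n = 2). The gap between the closest arrays of the groups, from 7.12 to 8.60, exceeded the 0.47 between the IgG arrays and the 0.18 between the RBP arrays. The difference was 1.81 ± 0.20 (SE; limma, adjusted p = 0.00568; 95% interval 1.30 to 2.31), ranked 132 of 19938 genes from the largest increase down. Genes with a mean level of 7 to 8, the band that holds Ythdc2, had a median of 0.66 and an upper quartile of 1.07.

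The call for Ythdc2 held in 13 of 14 other settings, and in all 4 fits that left out an array (1.57 to 2.04, adjusted p from 0.00918 to 0.0367). It held with quantile normalization (1.48, adjusted p = 0.0191) and after removal of the level trend (1.15, adjusted p = 0.0293). It was lost without variance moderation (adjusted p = 0.126), where limma called 2 genes higher in the whole table. Many of the 14 settings repeat the difference of 1.81 and are not independent. Ythdc2 has 1 probe set, and the filters, the block and the variance options leave its difference as it is. The log2 ratio of Ythdc1 to Ythdc2 was 2.18 and 1.94 with IgG and 1.01 and 0.50 with RBP. These ratios did not overlap (difference -1.30, exact two-sided permutation p = 0.333, adjusted over 5 pairs p = 1). Among the 5 pairs compared this was the only one without overlap. Any pair without overlap gives 0.333, the smallest p of that test, so the separation does not set this pair apart. The other 2 pairs that had been planned involve Ythdf2.

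**Figure D2:**
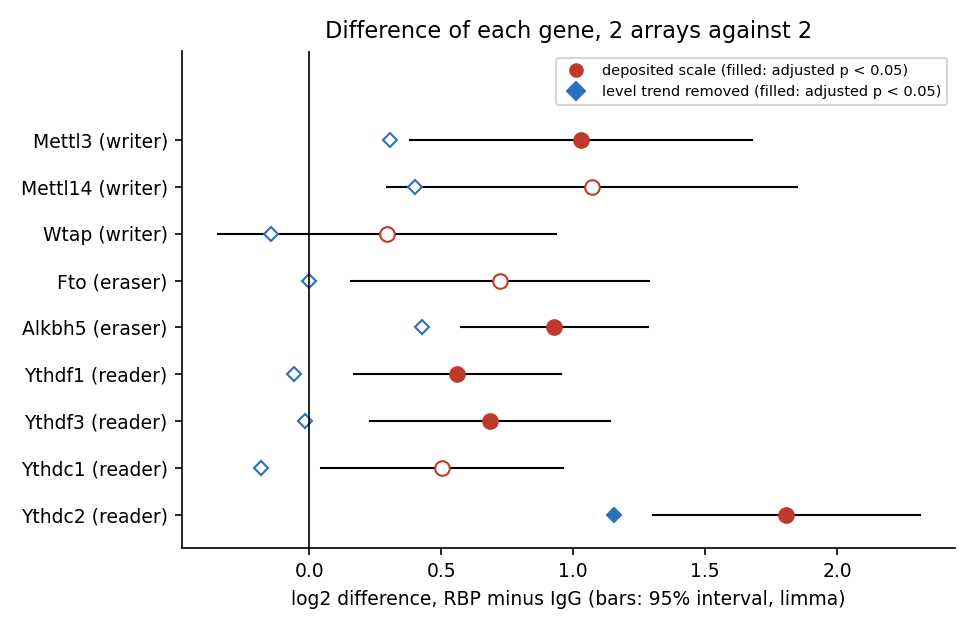
Log2 difference (RBP minus IgG) of the 9 genes, grouped by role, with red circles and 95% intervals from limma on the deposited scale and blue diamonds after the level trend was removed; filled symbols passed an adjusted p of 0.05. Ythdc2 (1.81, and 1.15 with the trend removed) is the only gene filled in both.

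**Figure D3:**
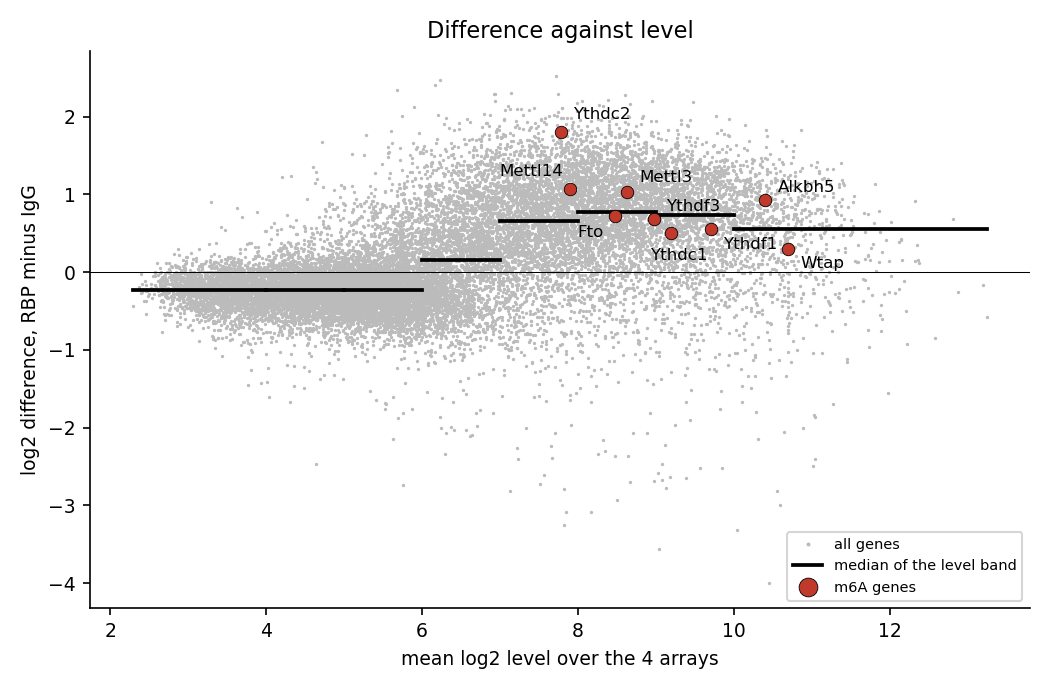
Log2 difference (RBP minus IgG) against mean log2 level for all 19938 genes (grey), with the median of each level band (black bars) and the 9 m6A genes (red). The other 8 genes lie between 0.29 and 1.07, around band medians of 0.56 to 0.78, and Ythdc2 lies above them at 1.81.

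The 9 genes differed in how they stood to the median of their level band. Mettl3 (1.03 against 0.78), Mettl14 (1.07 against 0.66), Alkbh5 (0.93 against 0.56) and Ythdc2 (1.81 against 0.66) were above it. Wtap (0.29 against 0.56), Fto (0.72 against 0.78), Ythdf1 (0.56 against 0.74), Ythdf3 (0.69 against 0.78) and Ythdc1 (0.50 against 0.74) were below it. Both RBP arrays exceeded both IgG arrays for 8 of the 9, compared with 37.4% of all genes and 54.9% of genes above the background level. The latter share includes genes at levels below those of all 9 members. It was not computed within the members' level bands, where more genes were called higher than among all genes above background. The IgG arrays were 0.61 to 0.93 apart for Mettl3, Mettl14, Wtap and Fto, and the RBP arrays of the same genes 0.05 to 0.20 apart.

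**Figure D4:**
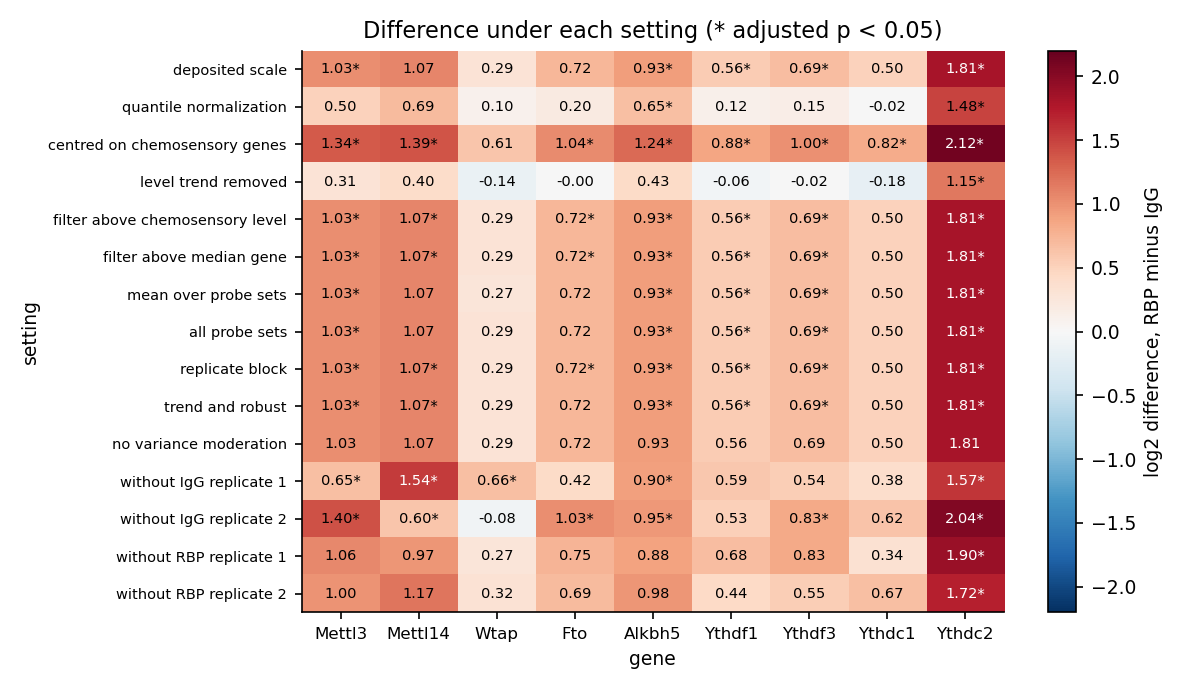
Log2 difference (RBP minus IgG) of each of the 9 genes under the deposited scale and 14 other settings, with colour for the size and an asterisk for an adjusted p under 0.05. Ythdc2 runs from 1.15 to 2.12 and is called in all but the setting without variance moderation, whereas Wtap and Ythdc1 are each called in 1 of the 14.

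The number of members called changed with the scaling. With quantile normalization, which moved the median difference of all genes from -0.02 to 0.16, only Alkbh5 and Ythdc2 were called. Centring on the chemosensory genes moved that median to 0.29 and left Wtap as the 1 gene not called, at 0.61 (limma, adjusted p = 0.103). Over all genes 4741 were higher and 1304 lower on the deposited scale, against 7078 and 317 after that centring and 1122 and 1014 with the level trend removed.

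Partners of the writer complex were called higher at a share near that of genes at their levels. That share was 47.1% to 57.8% at levels of 7 to 10. All 5 genes of this list were measured and above background; Virma, Zc3h13 and Rbm15 were higher, and Rbm15b and Cbll1 did not pass, against 36.5% called higher among all genes above background. The list median was 1.45, which is the value of Rbm15b itself, against -0.02 for all genes and 0.66 to 0.78 for genes at levels of 7 to 10. It was 0.76 when Rbm15b was read from its other probe set, a choice made after the data had been seen. Virma, the large scaffold that steers methylation towards the ends of transcripts, stood at 7.82 and 8.16 with IgG and at 9.47 and 9.69 with RBP. Its difference was 1.59 ± 0.18 (SE; limma, adjusted p = 0.00568), and its other probe sets gave 2.18 and 2.28, both called over all probe sets. With the level trend removed it was 0.87 and still called (adjusted p = 0.0412). Zc3h13, which anchors the complex in the nucleus, differed by 1.53 ± 0.24 (limma, adjusted p = 0.00839), a call lost with the level trend removed (0.88, adjusted p = 0.0696).

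Rbm15, an RNA-binding protein that brings the writers to their sites, differed by 0.76 ± 0.17 (limma, adjusted p = 0.0243) and lost its call with quantile normalization, with the level trend removed and without either RBP array. Its paralog Rbm15b, nearest the list median, had arrays of 8.22 and 7.09 with IgG and 9.73 and 8.48 with RBP. The difference of 1.45 ± 0.51 did not pass (limma, adjusted p = 0.0818). That probe set was matched to 0 RefSeq transcripts, and the one matched to 1 gave -0.08 ± 0.16, so the probe sets disagree and the value of Rbm15b is uncertain. Cbll1, the ubiquitin ligase HAKAI of the same complex, differed by 0.14 ± 0.18 (limma, adjusted p = 0.582).

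Most measured genes of a list for the supply of the methyl donor S-adenosylmethionine, and for relatives of its turnover enzymes, were called higher. Of 8 listed, 6 had a probe set with a single symbol (Mat2a and Ahcy had none), 5 were higher and the liver form Mat1a, below background at a mean level of 4.87, did not pass (-0.62, limma adjusted p = 0.0560). Above background 36.5% of all genes were called higher, and at levels of 7 to 10 the share was 47.1% to 57.8%. The list median was 1.34, against 0.66 to 0.78 for genes at levels of 7 to 10. Mat2b, the regulatory subunit of methionine adenosyltransferase, differed by 1.41 ± 0.17 (limma, adjusted p = 0.00571), methionine synthase Mtr by 1.34 ± 0.20 and its reductase Mtrr by 1.36 ± 0.20. Ahcyl2, related to the enzyme that clears S-adenosylhomocysteine, differed by 1.35 ± 0.15, and its paralog Ahcyl1 by 0.73 ± 0.16 (limma, adjusted p = 0.0220). After removal of the level trend Mat2b (0.79, adjusted p = 0.0430) and Ahcyl2 (0.64, adjusted p = 0.0498) kept their calls. With quantile normalization or without RBP array 1, 3 of the list were called higher.

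Other RNA methyltransferases were called in both directions. Of 16, 8 were higher, 1 was lower and 7 did not pass, where 36.5% of all genes above background were higher and 6.55% lower. The median of 0.68 lay within the 0.66 to 0.78 of genes at levels of 7 to 10. In those bands 47.1% to 57.8% of genes were called higher. Some of the 16 lay outside these levels. Genes at 6 to 7 had a median of 0.16, with 23.4% called higher, and genes above 10 a median of 0.56, with 47.2%. Mettl2, a tRNA methyltransferase, differed by 1.42 ± 0.15 (limma, adjusted p = 0.00558) and kept its call with the level trend removed (0.72, adjusted p = 0.0409). Wdr4, a partner of the tRNA enzyme METTL1, differed by 1.39 ± 0.21, Mettl16, which methylates U6 RNA, by 1.24 ± 0.19, Mettl6 by 1.17 ± 0.17 and the rRNA methyltransferase Fbl by 1.03 ± 0.22, and these 4 lost their calls with the level trend removed. A second Fbl probe set gave 0.55 and was not called. Pcif1, the writer of the methyl mark beside the cap and the gene nearest the list median, differed by 0.63 ± 0.15 (limma, adjusted p = 0.0284), and that call was lost with quantile normalization, with the trend removed and without either RBP array. The 1 lower gene, Emg1 (-0.60 ± 0.14, limma adjusted p = 0.0262), a ribosome assembly methyltransferase, lost its call with centring on the chemosensory genes and without either RBP array, and kept it with the level trend removed (-1.22, adjusted p = 0.0186). The list held 4 higher genes without RBP array 1 and 5 without RBP array 2.

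Among proteins outside the YTH family that are reported to bind m6A, the share called higher was close to that of all genes above background. It was below that of genes at their levels. Of 14 listed, 13 were measured (Igf2bp2 had no probe set with a single symbol), 5 were higher, 0 were lower in limma (0 also at an unadjusted p under 0.05) and 8 did not pass, against 36.5% higher among all genes above background. In the bands that hold the 13, at levels above 8, 47.2% to 57.8% of genes were called higher. The median was 0.49, against 0.56 to 0.78 in those bands. Fxr2, a paralog of the fragile X protein, differed by 1.53 ± 0.20 (limma, adjusted p = 0.00640). The fetal mRNA-stabilising genes Igf2bp1 (1.02 ± 0.17) and Igf2bp3 (0.68 ± 0.15), the large reader Prrc2a (1.01 ± 0.18) and the stress granule gene G3bp1 (0.71 ± 0.15) were also higher. Srsf3, a splicing factor nearest the list median, differed by 0.49 ± 0.25 (limma, adjusted p = 0.181), and its other probe sets gave 0.32 and 0.60. With the level trend removed limma called 0 of the 13, and 2 were higher and 3 lower at an unadjusted p under 0.05. Without RBP array 1 the list held 1 higher gene, without RBP array 2 it held 2, and with quantile normalization 1.

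The AlkB family, to which both erasers belong, had 6 of its 7 other listed genes measured (Alkbh1 had no probe set with a single symbol). Of these, 2 were higher and 4 did not pass, a share close to the 36.5% higher among all genes above background, and the median was 0.53. All of them but Alkbh7 lay at levels of 7 to 9. In those bands 47.1% and 56.4% of genes were called higher, with medians of 0.66 and 0.78. Alkbh8, a tRNA-modifying enzyme, differed by 1.46 ± 0.28 (limma, adjusted p = 0.0147) and lost its call without RBP array 2, with quantile normalization and with the level trend removed. Alkbh7, a mitochondrial protein, was low in level, at 5.79 and 5.46 with IgG and 6.51 and 6.54 with RBP, and differed by 0.90 ± 0.17 (limma, adjusted p = 0.0147). It kept its call after removal of the level trend (0.93, adjusted p = 0.0313) and lost it without either RBP array. Alkbh4, nearest the list median, differed by 0.58 ± 0.18 (limma, adjusted p = 0.0576), Alkbh3 by 0.48 ± 0.21, Alkbh6 by 0.21 ± 0.16 and Alkbh2 by -0.43 ± 0.18, and removal of the level trend made Alkbh2 a lower call (-0.97, adjusted p = 0.0320). Without IgG array 1 the list held 4 higher genes, without RBP array 1 it held 1 and without RBP array 2 it held 0.

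**Figure D5:**
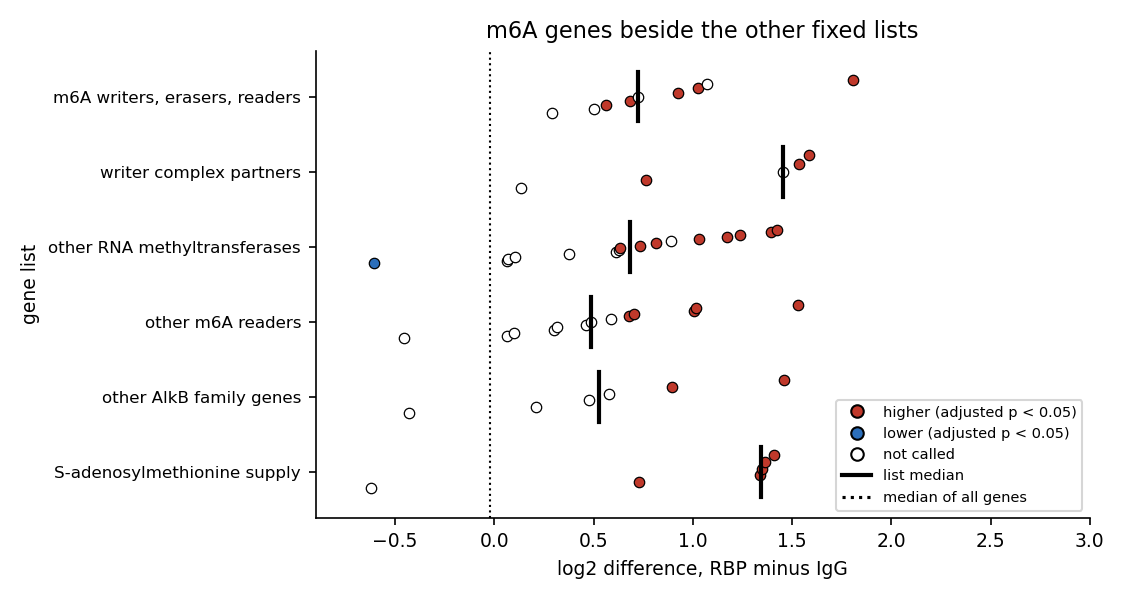
Log2 difference (RBP minus IgG) of each measured gene of the m6A group and the 5 other lists, with filled symbols for genes past an adjusted p of 0.05 (red higher, blue lower), a bar at each list's median and a dotted line at the median of all genes (-0.02). List medians run from 0.49 for the other readers to 1.45 for the writer complex partners (0.76 with the other Rbm15b probe set), with 0.72 for the 9 m6A genes.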

How the data were processed

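The authors deposited log2 levels per probe set. The submitters' processing notes name RMA and affy, while versions, background correction and filters are not stated there. That the scale is log2 was read from the range of values and from the use of RMA. Of 35556 probe sets, 21789 had 1 symbol, 1621 several and 12146 none in the platform annotation; 21698 matched the RefSeq gene table by Entrez identifier, with 0 symbols changed. A gene was represented by its probe set with the highest mean. Differences were tested with limma 3.58.1 in R 4.3.3 (lmFit, eBayes; 2 residual and 3.76 prior degrees of freedom; two-sided; Benjamini-Hochberg over 19938 genes, threshold 0.05), and the fit was tested on simulated data. The number of arrays limits the precision; the median SE was 0.17. The level trend was a loess fit with span 0.3. Alternatives also covered scaling, filters, probe sets, the replicate number, variance options and leaving out each array. Members, lists and settings were chosen with earlier results of these data known. From each list, up to 5 called genes by size and the gene nearest the median were named; Emg1, Cbll1, Mat1a, Alkbh2, Alkbh3 and Alkbh6 were named after their values were seen.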

Additional observations from a re-analysis of the deposited data

How the results depend on the processing

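On the deposited scale 5 of the 9 m6A genes were called higher, and in 14 other settings this number ran from 0 to 8. With quantile normalization it was 2, and 2207 of all genes were higher and 553 lower, with 2 higher among the other RNA methyltransferases, 1 among the other readers, 1 in the AlkB family and 3 in the methyl donor list. With centring on the chemosensory genes the m6A count was 8 and 317 of all genes were lower, with 9 higher among the other readers, 5 in the AlkB family and 0 lower among the methyltransferases. With the level trend removed the m6A count was 1 and 1122 of all genes were higher, with 1 among the writer partners, 1 among the methyltransferases, 0 among the other readers, 2 in the methyl donor list and, in the AlkB family, 1 higher and 1 lower. That setting also turned the differences of Wtap (-0.14), Fto (-0.0014), Ythdf1 (-0.058), Ythdf3 (-0.015) and Ythdc1 (-0.18) negative, as did quantile normalization for Ythdc1 (-0.016) and leaving out IgG array 2 for Wtap (-0.076, against 0.66 without IgG array 1). Without variance moderation limma called 2 of all genes higher and 1 lower and 0 in any of these lists, although 3 of the m6A genes had an unadjusted p under 0.05. A filter at the median gene left 564 genes lower, and trend and robust options added 1 lower gene to the methyl donor list.

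Leaving out 1 array gave 1 to 6 higher m6A genes, 1724 to 5153 higher and 99 to 2905 lower of all genes, 4 to 10 higher and 0 to 1 lower methyltransferases, 1 to 6 higher and 0 to 1 lower other readers, 0 to 4 higher and 0 to 1 lower in the AlkB family, and 3 to 5 higher and 0 to 1 lower in the methyl donor list. The lowest of these m6A counts, 1, came without RBP array 1 and again without RBP array 2, when Ythdc2 was the gene called. Fits on 3 arrays have fewer residual degrees of freedom, and the lone array of a group is assumed to vary like the others. With the replicate number as a block, 7 m6A genes were called, Mettl14 (adjusted p = 0.000708) and Fto (adjusted p = 0.00827) being the additions, with 2199 lower genes overall and 1 lower in the methyl donor list. The arrays share only a number in the labels. The deviations of arrays with the same number from their group means correlated at 0.26 across genes, and 15 of 19 markers of other cell types, Alb and Mpo among them, were higher on array 1 than on array 2 in both groups, against 0 of 7 erythroid progenitor markers. Reading Rbm15b from its other probe set left 3 writer partners called higher.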
